A study of Caenorhabditis elegans with 16 samples.

Results

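The *cyp-35* cytochrome P450 genes of *Caenorhabditis elegans* were taken as every row of the count table whose gene name starts with *cyp-35*, which gave 10 genes of 42048. They are *cyp-35A1* to *cyp-35A5*, *cyp-35B1* to *cyp-35B3*, *cyp-35C1* and *cyp-35D1*. The series holds 16 RNA libraries made from whole adult worms, in 4 groups of 4 biological replicates. The groups were *syp-2::AID* worms after 4 h on 4 mM auxin plates, *syp-2::AID* worms on plates without auxin, N2 worms (the wild-type strain) after 4 h on 4 mM auxin plates, and N2 worms on plates without auxin. All worms were adults taken 18 to 24 h after the L4 larval stage. The *syp-2::AID* worms carry a degron tag on SYP-2, a component of the synaptonemal complex, and are homozygous for the *ieSi38* transgene, which makes the plant F-box protein TIR1 from the *sun-1* promoter in the germline. Auxin brings tagged SYP-2 to TIR1 for degradation in that strain, whereas N2 worms have neither the tag nor TIR1. The study's methods do not say whether the plates without auxin held the solvent of the auxin, so the responses given here are responses to the auxin plates.

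Cytochrome P450 enzymes are haem proteins of the endoplasmic reticulum that oxidise lipophilic molecules, with electrons supplied by a P450 reductase and in part by cytochrome b5. In worms, much of this phase I metabolism takes place in the intestine, and its products can be conjugated by UDP-glucuronosyltransferases and glutathione S-transferases and exported. The *cyp-35* genes are known as some of the most readily induced P450 genes of the worm when it meets foreign chemicals, and members of the A group are also known to affect intestinal fat storage. Auxin, here indole-3-acetic acid given from outside, is a plant hormone.

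The libraries held 13964761 to 18741524 counted reads. In the auxin-treated *syp-2::AID* group, replicates 3 and 4 differed in makeup from the remaining 14 libraries. Of their counts, 18.9 to 19.03% fell on ribosomal protein genes, against 11.4 to 15.4% in the others, and 5.17 to 5.39% on vitellogenin genes, against 7.62 to 9.68%. Responses of *syp-2::AID* worms are therefore also given without these libraries, for the members and for the lists of other genes, and the part that the difference in makeup has in any result was not tested. Levels below are CPM, counts relative to the library total scaled by TMM factors. P-values for fold changes come from the quasi-likelihood test of edgeR, fitted to all 16 libraries at once and adjusted over the 11776 genes that passed a filter on low counts (0.630 CPM in at least 4 libraries), with a threshold of 0.05.

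All 10 *cyp-35* genes lie on chromosome V, and in the WBcel235 annotation most of them are grouped. *cyp-35A5*, *cyp-35B1*, *cyp-35B2* and *cyp-35B3* follow each other on the same strand with 0 protein-coding genes between neighbours. *cyp-35A3* and *cyp-35A4* lie on the same strand with 1 protein-coding gene, K09D9.1, between them, and 24 such genes separate *cyp-35B3* from *cyp-35A3*. *cyp-35A1* and *cyp-35A2* are also direct neighbours on 1 strand, whereas *cyp-35C1* and *cyp-35D1* stand alone, with 1661 protein-coding genes between *cyp-35A2* and *cyp-35C1* and 634 between *cyp-35C1* and *cyp-35D1*. Exon lengths were alike, at 1500 to 1727 bases. *cyp-35B1* and *cyp-35B3* each overlap an annotated non-coding RNA, K07C6.16 and K07C6.17, both with 0 counts in the table. The sources used here do not give how reads matching more than 1 gene were counted, so the split of reads between close paralogs, above all among the A and the B genes, is uncertain.

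Reads of the *cyp-35* genes were far more abundant on auxin plates in both strains. Their summed level was 241 ± 20.9 CPM in *syp-2::AID* worms on auxin and 23.3 ± 1.99 CPM in untreated *syp-2::AID* worms (SD, n = 4 each), a ratio of 10.4. It was 165 ± 8.85 CPM in auxin-treated N2 worms and 19.9 ± 2.28 CPM in untreated N2 worms, a ratio of 8.29. By edgeR, 7 of the 8 members tested rose in *syp-2::AID* worms, beside 5.27% of all genes tested, and all 8 rose in N2 worms, beside 3.99% of all genes tested. None fell in either strain. With 1 library left out, 7 or 8 members rose in *syp-2::AID* worms. The fits with 8 rises tested 9 members, since *cyp-35B2* then passed the filter, and *cyp-35D1* passed in none of them. The share of all genes that rose in *syp-2::AID* worms lay between 3.2% (without untreated *syp-2::AID* replicate 2) and 16.3% (without auxin-treated *syp-2::AID* replicate 2). It was 14.8% without auxin-treated *syp-2::AID* replicate 1, and 2.62% without replicates 3 and 4 of that group. In N2 worms it lay between 2.39% and 4.68%, the lowest without auxin-treated N2 replicate 2. The filter on low counts was passed by 8 members, and *cyp-35A1*, *cyp-35A4* and *cyp-35B1* passed it only through auxin-treated libraries, so these 3 had to differ. *cyp-35A2*, *cyp-35A5*, *cyp-35C1* and *cyp-35D1* reached the limit in all 16 libraries. The remaining pair, *cyp-35B2* and *cyp-35B3*, had 77 and 2 counts in all and did not pass. In 9 of the 10 members the 4 auxin-treated libraries lay above the 4 untreated ones in each strain, beside 7.75% of genes tested that did so in *syp-2::AID* worms and 8.79% in N2 worms. The exception in both was *cyp-35B3*. With 4 libraries against 4 the exact two-sided permutation test can give no p below 0.0286, and each of the 9 members had this value in both strains. RNA from whole worms gives neither the level per cell nor the tissue that made these reads.

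**Figure D1:**
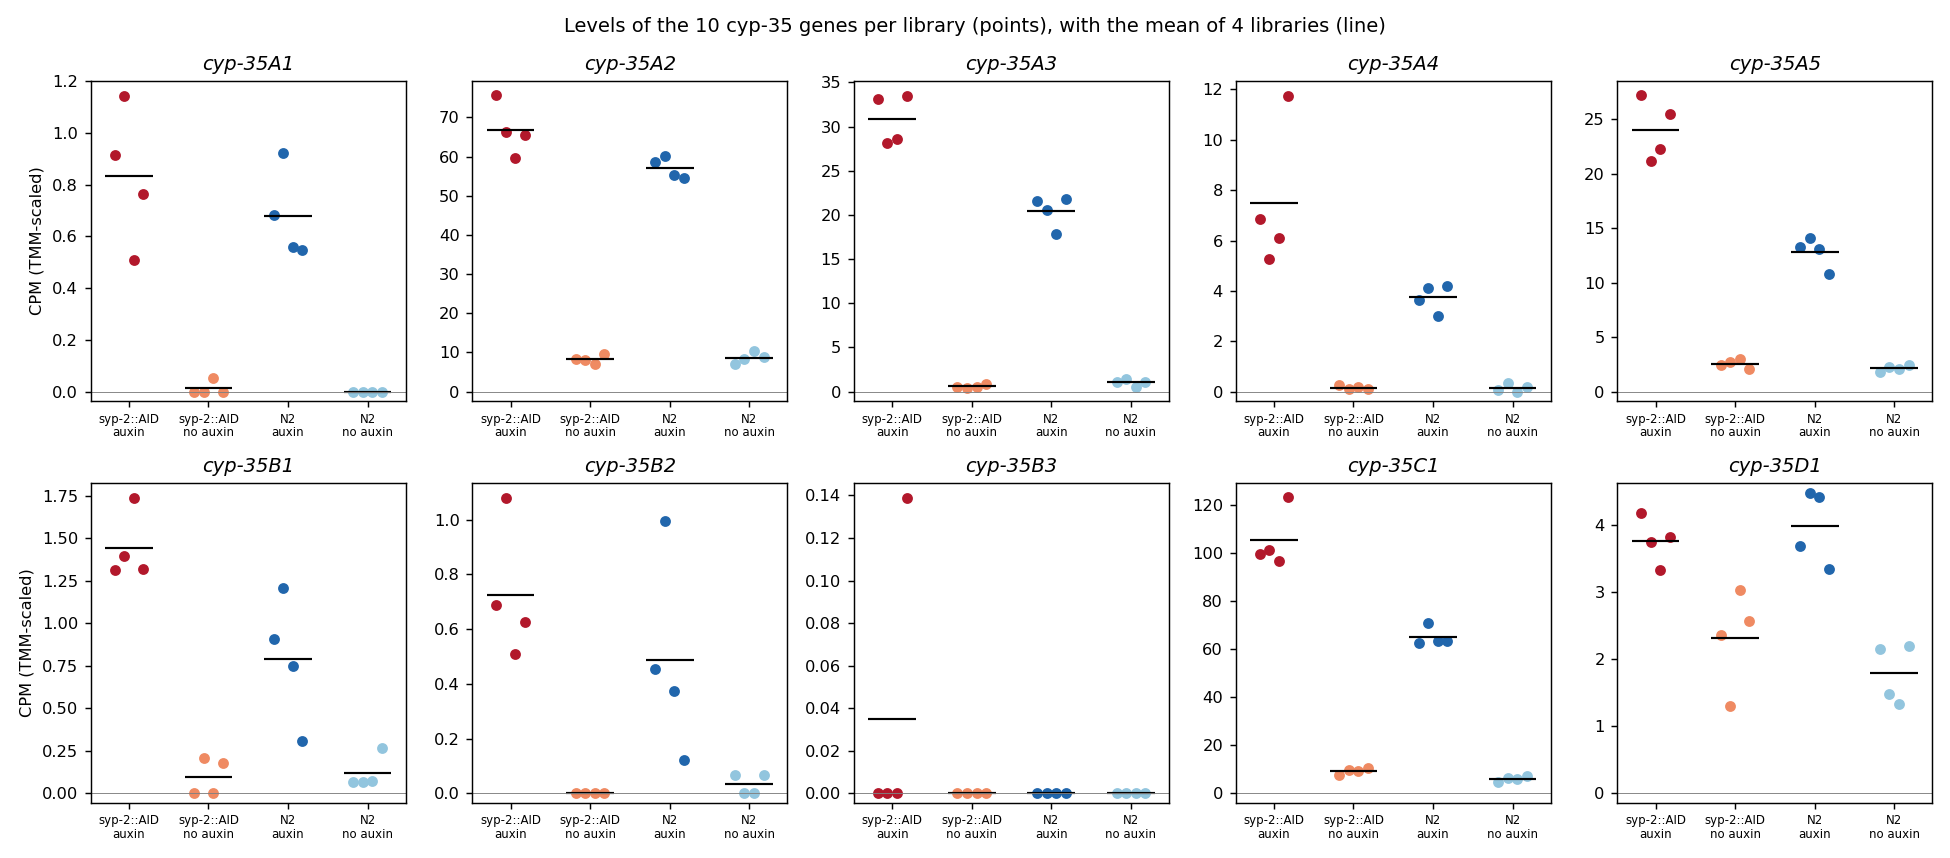
Level of each of the 10 *cyp-35* genes in CPM (vertical axes, linear, each with its own scale) in the 4 groups of libraries (horizontal axes). Points are single libraries in the order of their replicate numbers and the line is the mean of 4. Auxin-treated libraries of both strains lie above the untreated ones in every panel but that of *cyp-35B3*, where 1 library held 2 counts.

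*cyp-35C1*, a gene known to be induced by foreign chemicals, was the most abundant member on auxin plates. It stood at 99.6, 101, 96.8 and 123 CPM in auxin-treated *syp-2::AID* libraries, against 7.58, 9.68, 9.41 and 10.6 CPM in untreated ones. In N2 worms it stood at 62.7, 71.0, 63.2 and 63.3 CPM with auxin, against 4.64, 6.39, 5.91 and 7.21 CPM without. The lowest auxin-treated library of either strain was thus several times above the highest untreated one. The log2 fold change was 3.50 (standard error 0.13) in *syp-2::AID* worms and 3.43 (standard error 0.14) in N2 worms, with edgeR adjusted p = 6.64e-11 and 1.65e-10. These correspond to 11.3-fold (95% interval 9.29 to 13.7) and 10.8-fold (8.81 to 13.1). Without the 2 libraries that stood apart, the log2 fold change in *syp-2::AID* worms was 3.43.

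*cyp-35A2*, whose loss is known to lower fat stores in worms, was the next in level. It stood at 75.8, 66.3, 59.6 and 65.4 CPM in auxin-treated *syp-2::AID* libraries, against 8.30, 8.003, 6.98 and 9.70 CPM in untreated ones. In N2 worms the levels were 58.6, 60.2, 55.3 and 54.6 CPM with auxin, against 6.99, 8.20, 10.3 and 8.82 CPM without. Groups did not overlap within a strain, and the spread within each group was small beside the response. The rise was 8.10-fold (95% interval 6.75 to 9.73) in *syp-2::AID* worms and 6.67-fold (5.56 to 8.01) in N2 worms, with edgeR adjusted p = 6.64e-11 and 4.90e-10.

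*cyp-35A5* is the A gene that sits beside the B genes. Its levels were 27.2, 21.2, 22.3 and 25.5 CPM in auxin-treated *syp-2::AID* libraries, against 2.49, 2.72, 3.03 and 2.04 CPM in untreated ones. In N2 worms they were 13.3, 14.1, 13.1 and 10.8 CPM with auxin, against 1.76, 2.29, 2.07 and 2.47 CPM without. The untreated levels of the strains overlapped, whereas every auxin-treated *syp-2::AID* library lay above every auxin-treated N2 library. *cyp-35A5* rose by a log2 fold change of 3.22 (standard error 0.16, edgeR adjusted p = 6.15e-10) in *syp-2::AID* worms and of 2.57 (standard error 0.16, adjusted p = 1.50e-08) in N2 worms.

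*cyp-35A3* and *cyp-35A4*, the neighbours on the plus strand, were barely read without auxin and rose steeply on auxin plates. *cyp-35A3* stood at 33.1, 28.2, 28.6 and 33.5 CPM in auxin-treated *syp-2::AID* libraries, against 0.545, 0.366, 0.541 and 0.898 CPM in untreated ones. The N2 libraries held 21.5, 20.6, 17.9 and 21.8 CPM with auxin, against 1.11, 1.48, 0.517 and 1.14 CPM without. Its order among the members thus depended on auxin: per kilobase of exon it was the third most abundant member in both auxin-treated groups and the fifth in both untreated groups. The rise was 52.4-fold (95% interval 37.01 to 74.1) in *syp-2::AID* worms and 19.01-fold (13.7 to 26.3) in N2 worms, with edgeR adjusted p = 6.64e-11 and 2.56e-09. Among the 11776 genes tested, its fold change ranked 6 from the top in *syp-2::AID* worms and 10 in N2 worms.

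*cyp-35A4* reached 6.87, 5.28, 6.09 and 11.7 CPM in auxin-treated *syp-2::AID* libraries, against 0.242, 0.105, 0.162 and 0.120 CPM in untreated ones. The N2 libraries reached 3.64, 4.12, 2.99 and 4.20 CPM with auxin, against 0.0654, 0.336, 0 and 0.200 CPM without. The untreated values rest on 11 counts over 4 *syp-2::AID* libraries and 9 counts over 4 N2 libraries. The log2 fold change was 5.52 (standard error 0.43, edgeR adjusted p = 2.65e-07) in *syp-2::AID* worms and 4.54 (standard error 0.46, adjusted p = 6.20e-06) in N2 worms. *cyp-35A4*, too, entered this test only through auxin-treated libraries. Leaving out untreated N2 replicate 2, which held 5 of the 9 counts, moved the N2 value to 5.24.

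*cyp-35A1* was all but silent without auxin. It stood at 0.916, 1.14, 0.507 and 0.765 CPM in auxin-treated *syp-2::AID* libraries, against 0.0541 CPM in untreated replicate 3 and 0 CPM in the other 3. The N2 libraries held 0.682, 0.923, 0.561 and 0.548 CPM with auxin, against 0 CPM in all 4 untreated libraries. The *syp-2::AID* groups held 52 counts with auxin and 1 count without, a ratio of 60.0 after scaling, with a counting interval of 10.3 to 2414. The N2 groups held 43 counts with auxin and 0 without, so that with a floor of 3 counts over the untreated group *cyp-35A1* was at least 13.1-fold higher on auxin plates. It rose by edgeR in both strains, with adjusted p = 0.000127 in *syp-2::AID* worms and 0.000276 in N2 worms. *cyp-35A1* entered this test only through auxin-treated libraries, so these p-values are not separate support for its rise.

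The B genes were low in every group, as was *cyp-35A1*. *cyp-35B1*, known as a gene that rises when insulin signalling is low and DAF-16 is active, stood at 1.32, 1.40, 1.74 and 1.32 CPM in auxin-treated *syp-2::AID* libraries, against 0, 0.209, 0 and 0.180 CPM in untreated ones. In N2 worms it stood at 0.910, 1.21, 0.748 and 0.305 CPM with auxin, against 0.0654, 0.0673, 0.0739 and 0.267 CPM without. The N2 groups came close to touching, since the lowest auxin-treated library held 5 counts and the highest untreated one 4. The log2 fold change was 3.77 (standard error 0.61, edgeR adjusted p = 0.000688) in *syp-2::AID* worms and 2.65 (standard error 0.65, adjusted p = 0.0217) in N2 worms. *cyp-35B1*, too, entered this test only through auxin-treated libraries. The call in N2 worms was lost when auxin replicate 1 or 2 or untreated replicate 1, 2 or 3 of that strain was left out (adjusted p = 0.0621 to 0.0766), whereas leaving out untreated N2 replicate 4 moved its value to 3.38. In *syp-2::AID* worms, leaving out untreated replicate 2 moved the value to 4.45.

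*cyp-35B2* stood at 0.687, 1.08, 0.507 and 0.626 CPM in auxin-treated *syp-2::AID* libraries and had 0 counts in all 4 untreated ones. With 45 counts against a floor of 3 over the untreated group, it was at least 17.3-fold higher on auxin plates. In N2 worms it stood at 0.455, 0.994, 0.374 and 0.122 CPM with auxin, against 0.0654, 0, 0 and 0.0668 CPM without. These are 30 counts with auxin and 2 without, a ratio of 13.7 with a counting interval of 3.48 to 119. *cyp-35B2* did not pass the filter on low counts, and without that filter it passed the test of edgeR in both strains (adjusted p = 0.000361 in *syp-2::AID* worms and 0.0240 in N2 worms). Its call in N2 worms was lost in 3 of the 15 settings that tested it, without auxin-treated N2 replicate 1 (edgeR adjusted p = 0.0539) and without untreated N2 replicate 2 (0.0784) or 3 (0.0745). *cyp-35B3* had 2 counts, both in replicate 4 of the auxin-treated *syp-2::AID* group, and no change was detectable at this depth.

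*cyp-35D1*, known for its part in the metabolism of the anthelmintic thiabendazole, was the member with the smallest response. It stood at 4.18, 3.75, 3.33 and 3.82 CPM in auxin-treated *syp-2::AID* libraries, against 2.36, 1.31, 3.03 and 2.57 CPM in untreated ones. The N2 libraries held 3.70, 4.48, 4.43 and 3.35 CPM with auxin, against 2.16, 1.48, 1.33 and 2.20 CPM without. The groups did not overlap in either strain, and in *syp-2::AID* worms they lay apart by a narrow margin. The fold change was 1.63 (95% interval 1.15 to 2.31, edgeR adjusted p = 0.0777) in *syp-2::AID* worms, which did not pass, and 2.21 (1.55 to 3.16, adjusted p = 0.00855) in N2 worms, which did. Under 26 other settings *cyp-35D1* passed in none in *syp-2::AID* worms (adjusted p = 0.0512 to 0.225) and in all 26 in N2 worms.

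With auxin-treated replicates 3 and 4 of *syp-2::AID* worms left out, the log2 fold changes in that strain were 3.11 for *cyp-35A2*, 5.70 for *cyp-35A3*, 5.22 for *cyp-35A4*, 3.23 for *cyp-35A5* and 3.68 for *cyp-35B1*. All of these and those of *cyp-35A1* and *cyp-35C1* still passed, and that of *cyp-35D1*, 0.78, did not. The responses were thus about as large in the libraries with the makeup of the other groups.

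**Figure D2:**
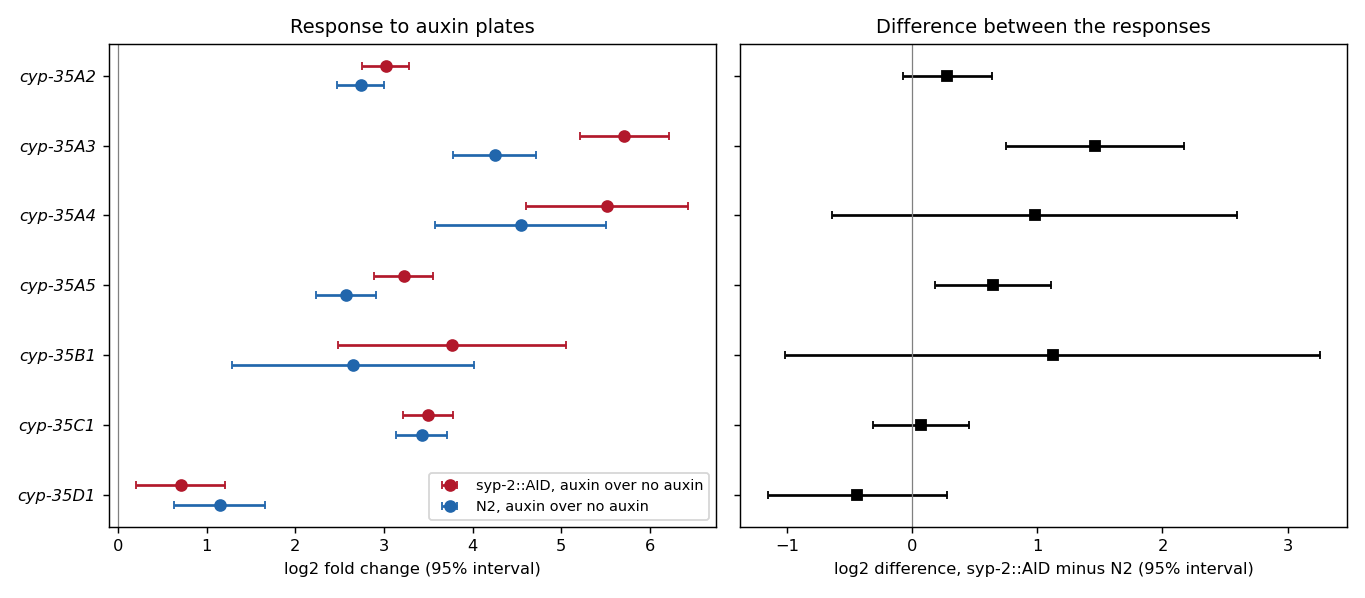
Left, log2 fold change on auxin plates for the 7 tested members with counts in both untreated groups, in *syp-2::AID* worms (red, upper) and N2 worms (blue, lower). Right, the difference between these responses, *syp-2::AID* minus N2; points are edgeR estimates and bars 95% intervals, and the intervals of *cyp-35A3*, at 1.46, and *cyp-35A5*, at 0.65, lie above 0 before adjustment.

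Since N2 worms have no degron, the difference between the responses compares worms in which auxin targets SYP-2 with worms in which it does not, in addition to all other differences between the strains. By edgeR, 0 of the 8 tested members passed the test of this difference after adjustment, beside 0.00849% of all genes tested that rose. At an unadjusted p under 0.05 were 2 of the 8 members, both with the larger response in *syp-2::AID* worms, beside 17.6% of all genes tested in either direction. After adjustment, limma-voom gave 0 members and DESeq2 gave 1, where DESeq2 called 0.484% of all genes as larger in *syp-2::AID* worms and limma-voom 0%. The difference was 1.46 on the log2 scale for *cyp-35A3* (95% interval 0.75 to 2.17, edgeR adjusted p = 0.174), and *cyp-35A3* was the member that passed with DESeq2 (adjusted p = 0.0104). For *cyp-35A5* it was 0.65 (0.19 to 1.11, edgeR adjusted p = 0.221). The difference of *cyp-35A1* was −1.17 (−3.27 to 0.92), a fitted value in which the untreated N2 group is at 0. The response of *cyp-35C1* differed by 0.07 (−0.31 to 0.45) and that of *cyp-35A2* by 0.28 (−0.08 to 0.64). The intervals of *cyp-35A4* (−0.64 to 2.60), *cyp-35B1* (−1.01 to 3.26) and *cyp-35D1* (−1.16 to 0.28) were wide and spanned 0. Without the 2 libraries that stood apart, the difference of *cyp-35A3* was 1.46 (edgeR adjusted p = 0.259) and that of *cyp-35A5* 0.66 (adjusted p = 0.453).

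On auxin plates the strains themselves were compared. By edgeR, 2 of the 8 members tested were higher in auxin-treated *syp-2::AID* worms than in auxin-treated N2 worms, beside 0.671% of genes tested, and none was lower. *cyp-35A5* averaged 24.0 ± 2.82 CPM in *syp-2::AID* worms and 12.8 ± 1.44 CPM in N2 worms (SD over n = 4 libraries each), with a fold change of 1.87 (95% interval 1.53 to 2.30, edgeR adjusted p = 0.00642). *cyp-35C1* averaged 105 ± 12.2 CPM in *syp-2::AID* worms and 65.04 ± 3.96 CPM in N2 worms, a fold change of 1.62 (1.36 to 1.92, edgeR adjusted p = 0.0111). In 5 of the 10 members, *cyp-35A3*, *cyp-35A4*, *cyp-35A5*, *cyp-35B1* and *cyp-35C1*, the 4 *syp-2::AID* libraries lay above the 4 N2 ones, beside 6.17% of genes tested. *cyp-35A3* at 1.51-fold (edgeR adjusted p = 0.0798) and *cyp-35A4* at 2.00-fold (adjusted p = 0.0882) did not pass, and *cyp-35D1* was at 0.948-fold (0.675 to 1.33). When the 8 auxin-treated libraries were fitted alone, neither *cyp-35A5* nor *cyp-35C1* passed (edgeR adjusted p = 0.0667 and 0.0626), and *cyp-35C1* was also lost without auxin-treated N2 replicate 1 (0.0607) or 3 (0.0606). The share of all genes called higher moved widely, to 0.0178% with the 8 libraries, to 0.126% without auxin-treated N2 replicate 1, and to 10.3% and 12% without auxin-treated *syp-2::AID* replicate 1 and replicate 2. Without the 2 *syp-2::AID* libraries that stood apart, both members still passed (0.0139 for *cyp-35A5* and 0.0154 for *cyp-35C1*).

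Among untreated worms, 1 of the 8 members tested differed between the strains by edgeR, beside 0.679% of genes tested that were higher in *syp-2::AID* worms. This was *cyp-35C1*, at 9.32 ± 1.27 CPM in untreated *syp-2::AID* worms and 6.04 ± 1.08 CPM in untreated N2 worms (SD, n = 4 each), a fold change of 1.54 (95% interval 1.26 to 1.88, edgeR adjusted p = 0.0398). It was also the single member whose groups did not overlap in this direction, beside 6.1% of genes tested. The call was lost in 11 of 26 other settings, which included limma-voom (adjusted p = 0.0820), the 8 untreated libraries alone (edgeR adjusted p = 0.0626) and the fits that left out auxin-treated N2 replicate 1, 3 or 4, untreated N2 replicate 1, 2 or 3, or untreated *syp-2::AID* replicate 2, 3 or 4 (up to 0.161). With 1 library left out, the share of all genes called higher lay between 0.168% (without untreated *syp-2::AID* replicate 4) and 2.57% (without untreated N2 replicate 4). *cyp-35A3* was at 0.588 ± 0.223 CPM in untreated *syp-2::AID* worms and 1.06 ± 0.399 CPM in untreated N2 worms, a log2 difference of −0.87 (95% interval −1.48 to −0.26, edgeR adjusted p = 0.140). The comparisons between strains use the same libraries as the comparisons with auxin and are not separate evidence.

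The makeup of the *cyp-35* reads changed with auxin as well as their sum. *cyp-35D1* held 1.57% of the reads of the 10 genes in *syp-2::AID* worms on auxin and 9.94% in untreated ones, and 2.41% in auxin-treated N2 worms and 9.14% in untreated ones. *cyp-35A3* went the other way, with 12.8% in *syp-2::AID* worms on auxin and 2.49% in untreated ones, and 12.4% in auxin-treated N2 worms and 5.38% in untreated ones. *cyp-35C1* and *cyp-35A2* held most of the reads in every group. Shares of 1 whole move together, so these values are a description of the levels above and were not tested.

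**Figure D3:**
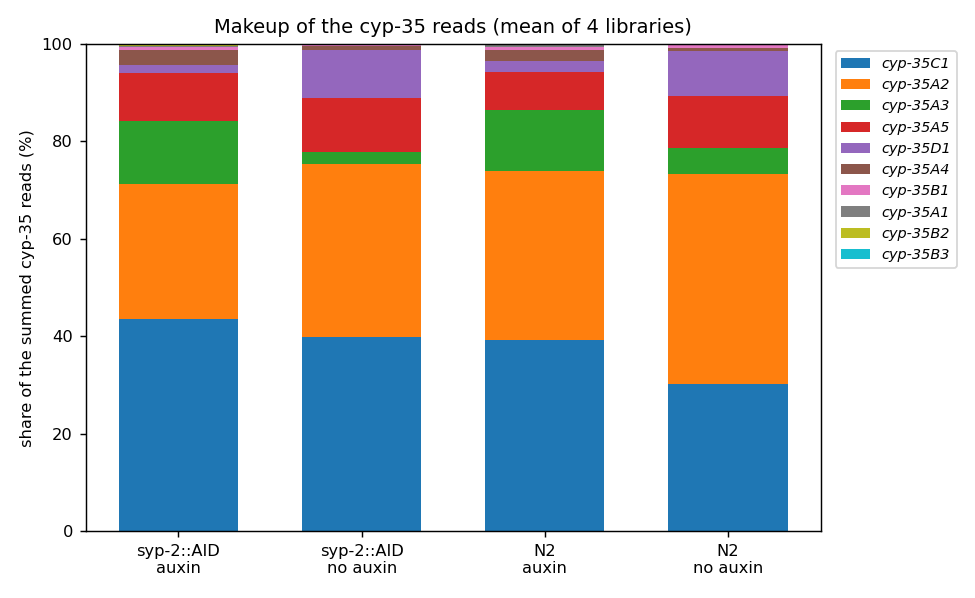
Share of each gene in the summed reads of the 10 *cyp-35* genes (vertical axis, percent, mean of the shares in 4 libraries) in the 4 groups (horizontal axis). *cyp-35A3* takes 12.8% with auxin and 2.49% without in *syp-2::AID* worms, and 12.4% with auxin and 5.38% without in N2 worms.

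Levels of different members were set side by side as CPM per kilobase of exon. In auxin-treated *syp-2::AID* worms the order was *cyp-35C1* (68.6 ± 7.94), *cyp-35A2* (42.1 ± 4.24), *cyp-35A3* (19.4 ± 1.80), *cyp-35A5* (13.9 ± 1.63), *cyp-35A4* (4.83 ± 1.87), *cyp-35D1* (2.39 ± 0.220) and *cyp-35B1* (0.876 ± 0.122), each step without overlap between libraries, and *cyp-35A1* and *cyp-35B2* below them overlapped. In untreated *syp-2::AID* worms *cyp-35C1* (6.07 ± 0.826) and *cyp-35A2* (5.19 ± 0.708) overlapped, as did *cyp-35A5* (1.49 ± 0.242) and *cyp-35D1* (1.47 ± 0.463). In auxin-treated N2 worms the first 4 were *cyp-35C1* (42.4 ± 2.58), *cyp-35A2* (36.0 ± 1.67), *cyp-35A3* (12.9 ± 1.13) and *cyp-35A5* (7.43 ± 0.831) without overlap, and *cyp-35D1* and *cyp-35A4* overlapped behind them. In untreated N2 worms *cyp-35A2* (5.40 ± 0.859) and *cyp-35C1* (3.94 ± 0.702) overlapped at the top. *cyp-35A5*, *cyp-35D1* and *cyp-35A3* came after them, and neighbours in that order overlapped. The same pair thus led with and without auxin, and *cyp-35A3* stood higher in the order on auxin plates.

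The genes that work with these enzymes were read from lists. Of 5 electron donor genes, 2 rose in each strain, beside 5.27% of all genes tested in *syp-2::AID* worms and 3.99% in N2 worms. *emb-8*, the P450 reductase, was at 209 ± 12.4 CPM in *syp-2::AID* worms on auxin and 159 ± 7.87 CPM in untreated ones, a log2 fold change of 0.40 (edgeR adjusted p = 0.00205), and at 187 ± 2.37 CPM in auxin-treated N2 worms and 149 ± 12.3 CPM in untreated ones, a log2 fold change of 0.33 (adjusted p = 0.0110). The cytochrome b5 gene *cytb-5.1* rose by a log2 fold change of 0.93 in *syp-2::AID* worms (edgeR adjusted p = 0.000155) and of 0.52 in N2 worms (adjusted p = 0.0242). The median log2 fold change of the 5 genes was 0.20 in *syp-2::AID* worms and 0.33 in N2 worms, where that of all genes tested was 0.033 and 0.013. Without the 2 libraries that stood apart, *emb-8* (0.47) and *cytb-5.1* (0.67) still passed in *syp-2::AID* worms, and the median was 0.080.

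Of 14 transcription factors and cofactors known from fat or xenobiotic metabolism in worms, 13 were tested. In *syp-2::AID* worms 1 rose and 1 fell by edgeR, where 621 of all 11776 genes tested rose and 227 fell. In N2 worms 0 passed, with 1 at an unadjusted p under 0.05, beside 18.5% of all genes tested. *nhr-176*, a nuclear receptor known to act on *cyp-35D1* in worms given thiabendazole, was at 4.34 ± 0.460 CPM in *syp-2::AID* worms on auxin and 2.03 ± 0.475 CPM in untreated ones (log2 fold change 1.10, edgeR adjusted p = 0.00181). In N2 worms it was at 2.92 ± 0.606 CPM with auxin and 2.03 ± 0.153 CPM without (0.53, adjusted p = 0.163). *nhr-49*, a nuclear receptor of fat metabolism, fell by 0.55 on the log2 scale in *syp-2::AID* worms (edgeR adjusted p = 0.0435), with 64.1 ± 20.2 CPM with auxin and 94.2 ± 3.16 CPM without. Without the 2 libraries that stood apart, 1 of 13 rose and 0 fell in *syp-2::AID* worms, beside 2.62% of all genes tested that rose. *nhr-176* still passed (1.03, edgeR adjusted p = 0.0197), and *nhr-49* did not (−0.21, adjusted p = 0.204). The median of the 13 genes was −0.22 in *syp-2::AID* worms and 0.061 in N2 worms, against 0.033 and 0.013 for all genes tested.

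In the comparisons of auxin with no auxin, all calls among other P450 genes were rises. Of 65 further *cyp* genes, 50 were tested, of which 24 rose and 0 fell in *syp-2::AID* worms (median log2 fold change 0.85) and 21 rose and 0 fell in N2 worms (median 0.72). The 4 with the smallest adjusted p were *cyp-34A9* (log2 fold change 2.53 in *syp-2::AID* worms and 2.42 in N2 worms), *cyp-33C8* (2.13 and 2.61), *cyp-13A12* (3.66 and 2.31) and *cyp-33A1* (1.67 and 1.29). Of the *cyp-13* family, 7 of 10 tested genes rose in each strain. No test of the difference between the *cyp-35* genes and other *cyp* genes was made. Of the conjugation genes, 21 of 50 tested *ugt* genes rose and 1 fell in *syp-2::AID* worms, and 14 rose and 2 fell in N2 worms, while 15 of 32 tested *gst* genes rose and 0 fell in *syp-2::AID* worms, and 9 rose and 1 fell in N2 worms. Of 13 tested *pgp* export genes, 2 rose in *syp-2::AID* worms and 5 in N2 worms. Of all genes tested, 5.27% rose in *syp-2::AID* worms and 3.99% in N2 worms. In *syp-2::AID* worms the median log2 fold change was 0.69 for *ugt*, 0.74 for *gst* and −0.11 for *pgp* genes, against 0.033 for all genes tested. In N2 worms these medians were 0.54, 0.65 and 0.78, against 0.013. Without the 2 *syp-2::AID* libraries that stood apart, 19 of 51 other *cyp* genes, 7 of 11 *cyp-13* genes, 11 of 53 *ugt*, 10 of 34 *gst* and 4 of 13 *pgp* genes rose in that strain and 0 fell, and the 4 named *cyp* genes were at 2.33 (*cyp-34A9*), 2.21 (*cyp-33C8*), 3.70 (*cyp-13A12*) and 1.83 (*cyp-33A1*). In that fit 2.62% of all genes tested rose in *syp-2::AID* worms, and the median of the *pgp* genes was 0.42.

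**Figure D4:**
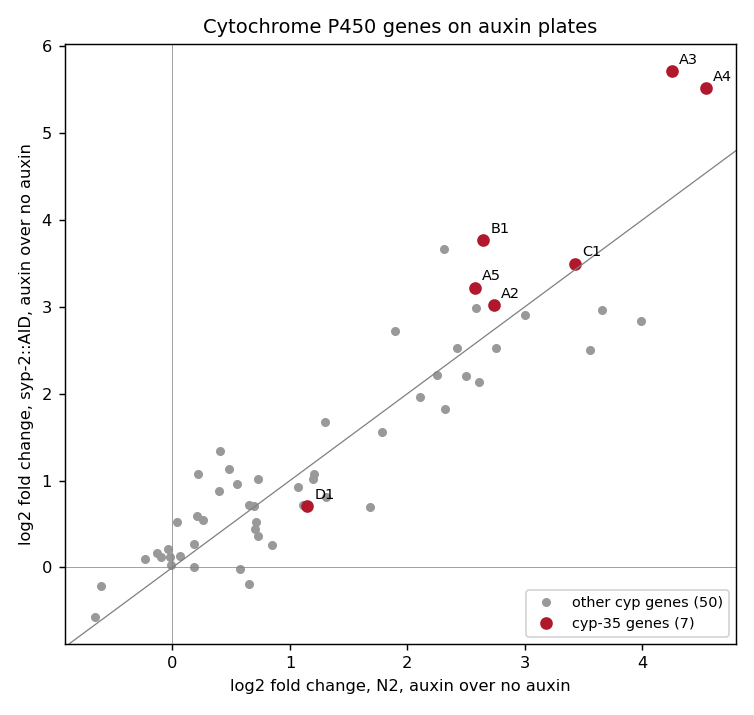
Log2 fold change on auxin plates of tested P450 genes in N2 worms (horizontal axis) and *syp-2::AID* worms (vertical axis), for 7 *cyp-35* genes (red, named by their suffix) and 50 other *cyp* genes (grey). *cyp-35A1* is left out because its untreated N2 libraries were all at 0; the line marks equal change, and *cyp-35A3* and *cyp-35A4* lie farthest to the upper right.

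The summed level of intestine markers, from the main known site of these enzymes, was not higher on auxin plates. Over 6 such markers, of which the protease gene *asp-1* gave most of the reads, it was 1942 to 2085 CPM in auxin-treated *syp-2::AID* libraries and 2161 to 2614 CPM in untreated ones, and 1474 to 2103 CPM in auxin-treated N2 libraries and 2259 to 2535 CPM in untreated ones. By edgeR 0 of the 6 rose and 1 fell in *syp-2::AID* worms, where 621 of all 11776 genes tested rose and 227 fell. In N2 worms 0 of the 6 rose and 2 fell, where 470 of all genes tested rose and 170 fell. Without the 2 libraries that stood apart, 0 of the 6 rose and 0 fell in *syp-2::AID* worms, where 319 of all 12193 genes tested rose and 125 fell. None of the 6 was at 0 in any library.

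A mean *cyp-35* profile over the 16 libraries was set beside the log2(CPM + 0.1) of every other tested gene, as Pearson's r. That profile was the mean, over the 8 tested members, of log2(CPM + 0.1) centred and scaled by each member's own SD. Each of the 8 thus had equal weight, whatever its level. The 5 genes outside the family with the highest r were C40H1.8 (0.990), F58F9.7 (0.990), *gst-5* (0.989), F44G3.2 (0.989) and *acs-14* (0.987). F44G3.2 stood at 18.6 ± 2.85 CPM in *syp-2::AID* worms on auxin and 0.194 ± 0.0967 CPM in untreated ones, and at 13.6 ± 2.48 CPM in auxin-treated N2 worms and 0.153 ± 0.0619 CPM in untreated ones. Among the 8 tested members r lay between 0.867 for *cyp-35D1* and 0.990 for *cyp-35C1*, and each member is itself part of that mean profile. All 16 points share the split by auxin, which by itself gives a high r to any gene that responds strongly, so r is given as a description.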

How the data were processed

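Whole-worm RNA was sequenced in 16 libraries, 4 groups of 4 biological replicates by strain and auxin. The authors used bcl2fastq 2.1.7, aligned reads to ce10 with TopHat2 2.0.11 and counted them per gene with featureCounts, and the deposited values are raw counts. Neither the annotation, the strand setting nor the treatment of reads matching several genes is given in the sources used here. The study's own tests used DESeq2.

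Groups were compared in R 4.3.3 with edgeR 4.0.16 (quasi-likelihood, robust, TMM factors, default filter at 10 counts) over all 16 libraries as 4 groups, with Benjamini-Hochberg adjustment over 11776 genes and a threshold of 0.05. The biological coefficient of variation was 0.185. For single members, an exact permutation test (two-sided) on CPM was added. Intervals of ratios of counts and the floor of 3 counts cover counting error only. Scripts were first tested on simulated data. Any 2 libraries of a group differed by more than sampling noise (chi-square per gene 3.09 to 140 over 24 pairs).

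The members and lists were chosen with earlier results of these data known. All 10 members are named. From a list, up to 4 genes with the smallest adjusted p past the threshold in either auxin comparison are named, and the 5 genes of most similar profile. Gene names, neighbours and exon lengths came from a WBcel235 annotation, and no coordinates are given because the reads were aligned to another build. Protein and promoter sequences were not analysed here.

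Alternatives comprised DESeq2 1.42.0, limma-voom (limma 3.58.1), other factors (RLE, upper-quartile or none), a filter of 1 count in all or of 10 in each library, the 8 libraries of the groups compared, the replicate number as a block, each library left out in turn, and auxin-treated *syp-2::AID* replicates 3 and 4 left out together.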

Additional observations from a re-analysis of the deposited data

Results flagged for a closer look

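Of 35 sets of 4 libraries with any spread (1 member in 1 group), 5 held a library far from the other 3 by Dixon's test. Chance gives about 1 in 20 for continuous values, a rate that does not hold for sets of a few counts such as the last 3 given here; where the other libraries are all at 0, any read is picked out. *cyp-35C1* stood at 123 CPM in auxin replicate 4 of *syp-2::AID* worms, with the other 3 at 96.8 to 101 CPM. It stood at 71.0 CPM in auxin replicate 2 of N2 worms, with the other 3 at 62.7 to 63.3 CPM. *cyp-35B1* stood at 0.267 CPM (4 counts) in untreated N2 replicate 4, where the other 3 held 1 count each. *cyp-35A1* stood at 0.0541 CPM in untreated *syp-2::AID* replicate 3, on 1 count, with the others at 0. *cyp-35B3* stood at 0.139 CPM in auxin replicate 4 of *syp-2::AID* worms, on 2 counts, with the others at 0.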

How the results depend on the processing

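The rises of *cyp-35A2*, *cyp-35A5* and *cyp-35C1* passed in both strains under all 26 alternatives, and those of *cyp-35A1*, *cyp-35A3* and *cyp-35A4* under each alternative that tested them. *cyp-35A1* and *cyp-35A4* passed the default filter only through auxin-treated libraries, so their passing is not separate support for their rises. With 10 counts in every library 4 members were tested, of which 3 rose in *syp-2::AID* worms and 4 in N2 worms, beside 5.54% and 3.79% of all genes. No factors moved the median log2 fold change of all genes by over 0.1, to 0.15 for auxin in N2 worms, 0.15 between untreated strains and −0.18 for the difference between responses. The number of members with a larger response in *syp-2::AID* worms was 1 with DESeq2, beside 0.484% of all genes. The number higher in untreated *syp-2::AID* worms was 0 with limma-voom and with the 8 libraries, and 0 to 1 with a library left out. All genes called higher were 0.56%, 1.24% and 0.168 to 2.57% in these fits. The number higher in auxin-treated *syp-2::AID* worms was 4 with DESeq2, 3 with limma-voom, 0 with the 8 libraries, and 1 to 4 with a library left out, beside 3.33%, 0.73%, 0.0178% and 0.126 to 12% of all genes. The cause of these changes was not tested.

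Some values without a call turned sign or reached 0. The difference between responses was −0.10 for *cyp-35C1* with no factors and −0.029 to 0.18 with a library left out, and for *cyp-35A1*, at −1.17 in the report, 0.16 with limma-voom and −1.47 to 0.31 with a library left out. Between untreated strains *cyp-35A2* was at 0.071 with no factors, and with a library left out the ranges were −0.14 to 0.041 for *cyp-35A2*, −0.34 to 0.73 for *cyp-35A4*, −0.94 to 0.48 for *cyp-35B1* and 0 to 1.78 for *cyp-35A1*. Replicate numbers did not pair the libraries (correlations of same-numbered libraries −0.366 to 0.353, over 0.1 in 3 of 16 pairs). With the number as a replicate block 7 members rose in each strain, beside 4.18% of all genes in *syp-2::AID* worms and 3.23% in N2 worms. In that fit *cyp-35B1* in N2 worms was at 2.63 with edgeR adjusted p = 0.0540. All 40 mean levels moved by less than 1 SD with library totals alone. Members with under 100 counts in all, *cyp-35A1*, *cyp-35B2* and *cyp-35B3*, are limited by depth.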
